A study of Mus musculus with 6 samples.

Results

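The semaphorin, plexin, neuropilin, ephrin and Eph genes of the mouse were compared between fibroblasts, induced pluripotent cells and embryonic stem cells. Members were all genes whose symbol in the array annotation was Sema of classes 3 to 7, Plxn, Nrp1 or Nrp2, Epha, Ephb, Efna or Efnb with a number. This gave 49 genes, read by 77 probes, of 16590 named genes and 25697 probes on the array. There were 6 Illumina bead arrays, which measure RNA levels by hybridisation, with 2 arrays in each of 3 groups. The first group, OG2-MEF, was embryonic fibroblasts prepared from E13.5 embryos of transgenic mice in which the Oct4 promoter drives green fluorescent protein, and these were grown on gelatin. The second, piPSC, was pluripotent stem cells induced with recombinant proteins, which the labels do not name further. The third, ES, was the R1 embryonic stem cell line. The culture protocol on the piPSC and ES labels describes embryonic stem cells kept on irradiated feeder fibroblasts in medium that held serum and leukemia inhibitory factor, so RNA of feeder cells may be part of those samples. Arrays of a group are labelled as biological replicates, but whether separate cultures or clones were used is not said, so the p-values reflect only how far these samples spread, which may be technical.

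Semaphorins and ephrins are contact or short-range signals that guide migrating cells and growing axons. Secreted class 3 semaphorins bind neuropilins, which form a complex with plexins that carries the signal into the cell, whereas semaphorins of the other vertebrate classes are bound to the membrane and mostly bind plexins directly. Ephrin-A ligands are anchored to the membrane by a lipid and ephrin-B ligands span it, and both are read by Eph receptor tyrosine kinases on neighbouring cells. In the embryo these systems set tissue boundaries and steer mesenchyme, neural crest and blood vessels.

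The promoters of 3 members that fell most and of a member that rose are shown because the first 3, which all fell, differ in base composition. Each line gives the 250 bases before the annotated start of the gene (RefSeq, GRCm38.p6), 5′ to 3′ on the gene's strand, and capitals mark matches to the GC box, GGGCGG or its reverse complement CCGCCC.
Sema3a, chr5:13396534-13396783, plus strand: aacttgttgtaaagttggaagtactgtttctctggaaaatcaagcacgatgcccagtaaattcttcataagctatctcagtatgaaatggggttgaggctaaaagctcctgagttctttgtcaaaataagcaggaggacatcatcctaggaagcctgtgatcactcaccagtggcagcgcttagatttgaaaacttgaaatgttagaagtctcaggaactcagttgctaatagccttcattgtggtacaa
Nrp1, chr8:128358823-128359072, plus strand: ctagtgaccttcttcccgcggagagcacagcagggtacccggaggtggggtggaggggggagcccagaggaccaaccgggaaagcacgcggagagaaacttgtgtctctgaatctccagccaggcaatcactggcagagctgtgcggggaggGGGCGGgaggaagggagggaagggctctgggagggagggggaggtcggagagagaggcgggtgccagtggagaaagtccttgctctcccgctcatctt
Efna5, chr17:62881318-62881567, minus strand: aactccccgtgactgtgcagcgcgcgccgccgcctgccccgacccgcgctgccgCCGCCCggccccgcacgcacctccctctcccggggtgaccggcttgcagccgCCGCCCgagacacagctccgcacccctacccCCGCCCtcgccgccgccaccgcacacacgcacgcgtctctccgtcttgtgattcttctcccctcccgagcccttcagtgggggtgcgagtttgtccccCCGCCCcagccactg
Sema4b, chr7:80186620-80186869, plus strand, the first of 2 annotated windows: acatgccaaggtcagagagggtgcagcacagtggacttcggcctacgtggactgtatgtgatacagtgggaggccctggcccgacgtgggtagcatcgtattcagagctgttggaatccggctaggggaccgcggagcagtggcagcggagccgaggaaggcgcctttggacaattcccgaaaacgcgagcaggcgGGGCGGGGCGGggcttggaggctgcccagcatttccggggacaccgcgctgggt
The Sema3a window held 2 CpG dinucleotides, 40.8% G or C and no GC box, while that of Efna5 held 32 CpG dinucleotides, 74.8% G or C and 4 GC boxes. The Nrp1 window held 11 CpG dinucleotides and 1 GC box, and the Sema4b window 20 and 2. Of the members, 43 had a window in the table, 55 windows in all, and 76.4% of these held a GC box on either strand, against 32.7% of all 32851 windows. That reference covers all 27025 genes with a window, not only those on the array. Its median G or C content was 52.4%, against 64.0% in the member windows. Whether the GC box share differs beyond base composition was not tested. A GC box was present in 12 of 16 windows of members that were lower in both pluripotent groups and in 12 of 15 windows of members called in neither. Other letters searched on both strands were the TATA box TATAAA, the CCAAT box CCAAT, the AP-1 element TGANTCA, the TEAD element GGAATG, the octamer ATGCAAAT and the E-box CACGTG. None of these was in the 4 windows printed, and the octamer was in 0 of the 55 member windows, against 1.60% of all windows. These matches describe letters only and say nothing of which factors bind.

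Values below are normalized log2 signals, in which probes of different genes cannot be compared with each other. A probe was called above background on an array where the deposited detection p was under 0.05. A gene was tested where, in any group, both arrays had a probe of it above background, and it was called changed at an adjusted p under 0.05 (limma, Benjamini-Hochberg over all 10748 features) with a fold of at least 2. Each SE is limma's moderated standard error on the log2 scale, with n = 2 arrays per group. Where both arrays of the dimmer group were not above background, the fold is a lower bound, written "at least". It sets the brighter group against, per array, the probe's own signal or the lowest signal above background, whichever was higher.

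The share of probes above background was 46.87% to 52.41% per array. ES replicate 2 stood apart: the SD of the difference between the arrays of a group was 0.57 over all features for ES, against 0.20 for piPSC and 0.19 for OG2-MEF, and over the tested members it was 0.65, 0.24 and 0.22. Of 10 pluripotency markers, 10 were above background on every piPSC and ES array and 2 on each OG2-MEF array. Of 11 fibroblast markers on the array, 10 were above background on all 6 arrays. Their log2 summed signal was 15.88 to 16.01 on OG2-MEF arrays, 13.74 to 13.84 on piPSC arrays and 13.38 to 13.61 on ES arrays. Among markers of other cell types, the endothelial genes Cdh5, Kdr and Tie1, the neural genes Sox1, Pax6, Neurod1 and Elavl3 and the leukocyte genes Ptprc and Tyrobp were above background on none of the 6 arrays, while other genes of the same lists were detected and are given beside the members' counts.

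Of the 49 members, 32 had a kept probe and were tested, and 17 were not. Among the 32 tested genes, 15 were lower and 2 higher in piPSC than in OG2-MEF, 17 called in all (53.1%), where 41.4% of all features were called, 21.4% lower and 20.0% higher. In ES, 15 were lower and 3 higher than in OG2-MEF, 18 in all (56.2%), where 46.7% of all features were called, 21.6% lower and 25.1% higher. The median log2 fold change of the tested members was -0.96 in piPSC and -0.94 in ES, beside 0.02 and 0.15 for all features. The comparisons share the OG2-MEF arrays, and 14 members were called lower and 2 higher in both, with 0 called in opposite directions. Of the tested genes, 5 passed the background filter through OG2-MEF alone and so could differ in 1 direction only, and 4 of these were called lower in each comparison. Among the 16 genes above background on all 6 arrays, 9 were lower and 2 higher in piPSC, and 8 lower and 2 higher in ES. The share called among all features above background on all 6 arrays was not computed, so these counts have no matching background. Fibroblast markers moved with these genes: 9 of 10 tested were lower in both piPSC (median -2.25) and ES (median -2.36), while Lum, a proteoglycan gene, was higher.

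Markers of other cell types moved too. Of 6 skeletal muscle markers tested, 4 were lower and 1 higher in each comparison, with Acta1, skeletal actin, at -5.95 in piPSC and -5.11 in ES and Myl1, a myosin light chain, at least 71.8-fold and at least 62.4-fold lower. Their log2 summed signal was 12.82 to 12.93 in OG2-MEF, 12.07 to 12.08 in piPSC and 11.29 to 11.45 in ES. A sum follows the brightest probes of its list, so it is no measure of the amount of a cell type. In piPSC the muscle sum was nearly that of Mylpf alone, the marker that was higher, at 11.99 and 11.98. The cartilage list summed to 13.55 to 13.74 in OG2-MEF, 8.09 to 8.20 in piPSC and 8.56 to 8.96 in ES. Of 6 cartilage markers, 2 were lower in each comparison and 1 and 2 higher, with a median change of -0.37 in piPSC and -0.25 in ES. The collagen gene Col2a1 changed by -7.20 and -7.76, more than the fitted change of any tested member. Its own signals of 13.72 and 13.52 in OG2-MEF nearly made up the sum of the list there. Of 6 neural markers, 3 were lower and 1 higher in each comparison, with Nes, an intermediate filament gene, at -4.20 and -4.89 and Ncam1, an adhesion gene, at -4.64 and -4.58. That list summed to 12.79 to 12.90 in OG2-MEF, 11.49 to 11.53 in piPSC and 11.57 to 11.69 in ES. Most of the sum in piPSC was Stmn2, the marker that was higher, at 11.2 and 11.29. Of 4 macrophage markers, 3 were lower and 0 higher, with Cd14 at -1.46 and -2.22, and the list summed to 8.85 on both OG2-MEF arrays, 7.42 to 7.54 in piPSC and 6.82 to 7.32 in ES. Endothelial markers went mostly the other way, 4 of 6 higher and 1 lower. Tek, an angiopoietin receptor gene, was at least 4.47-fold higher in piPSC and at least 8.01-fold higher in ES, and Emcn, a sialomucin gene, at least 18.2-fold and at least 15.8-fold lower. The endothelial list summed to 10.04 to 10.15 in OG2-MEF, 10.75 to 10.86 in piPSC and 11.21 to 11.42 in ES. Of 5 epithelial markers, 4 were higher in piPSC and 5 in ES, with the cadherin gene Cdh1 at least 33-fold and at least 46.1-fold higher, and the list summed to 8.41 to 8.42 in OG2-MEF, 12.23 to 12.31 in piPSC and 12.82 to 12.89 in ES. The part of these cell types, or of feeder RNA, in the members' values was not tested. In these bulk samples, fewer cells of a type and less RNA per cell cannot be told apart.

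**Figure D1:**
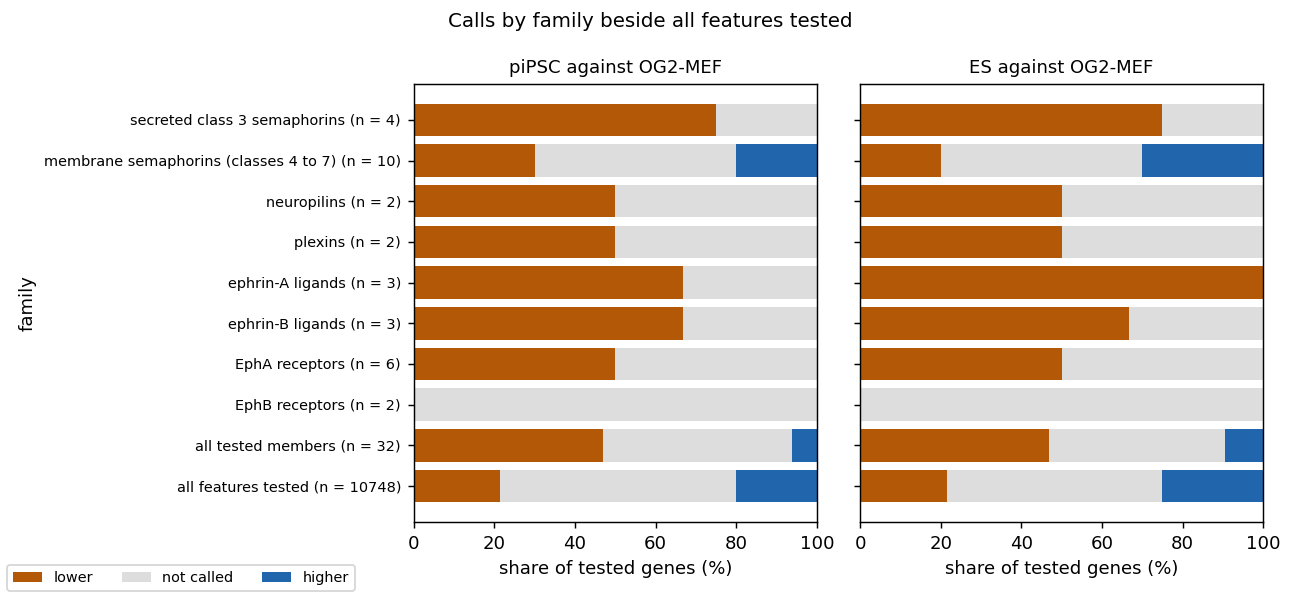
Share of tested genes (%) called lower, not called and called higher, by family, in piPSC against OG2-MEF (left) and ES against OG2-MEF (right), with the number tested beside each name. Lower calls made up 46.9% of the tested members in each comparison, beside 21.4% and 21.6% of all features, and 2 and 3 of the 10 membrane semaphorins were called higher.

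Class 3 semaphorins, the secreted ligands, were lower in the pluripotent cells for 3 of 4 tested genes and higher for 0. Of all features, 21.4% were lower in piPSC and 21.6% in ES. Sema3a and Sema3c passed the background filter through OG2-MEF alone, so they could differ in 1 direction only. Sema3a, a repellent of axons, lay at 10.69 and 10.45 on the OG2-MEF arrays, at 4.74 and 4.71 on the piPSC arrays and at 4.74 and 4.69 on the ES arrays. It was well above background in fibroblasts and on none of the pluripotent arrays. The decrease was at least 48.3-fold in piPSC (adjusted p = 1.3e-06) and at least 42-fold in ES (adjusted p = 1e-06), the largest among the tested members. In the deposited linear intensities this was 2120 and 1840 in OG2-MEF, against 44.3 to 51.7 on the other 4 arrays.

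Sema3f, a class 3 ligand that acts mainly through Nrp2, lay at 10.96 and 11.02 in OG2-MEF, 8.30 and 8.09 in piPSC and 8.14 and 8.37 in ES. Unlike Sema3a it was still above background in the pluripotent cells, with log2 fold changes of -2.80 (SE 0.15, adjusted p = 1.4e-05) in piPSC and -2.74 (SE 0.15, adjusted p = 1.3e-05) in ES. A second kept probe of the gene gave differences of -2.85 and -2.70, and the remaining one, above background only in OG2-MEF, was at least 1.19-fold and at least 1.03-fold lower. Sema3c, which has a known role in the outflow tract of the mouse heart, was dim: 6.28 and 5.99 in OG2-MEF and 4.67 to 4.88 on the other 4 arrays, where it was not above background. It was at least 2.24-fold lower in piPSC (adjusted p = 0.00033) and at least 1.95-fold lower in ES (adjusted p = 0.00032), and neither call held on the authors' matrix, with no background correction or with a larger offset. Sema3b differed by 0.00 (SE 0.19, adjusted p = 0.99) in piPSC and 0.03 (SE 0.19, adjusted p = 0.91) in ES, with 5.06 and 5.56 on the OG2-MEF arrays. The probes of Sema3d, Sema3e and Sema3g were above background on none of the 6 arrays.

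Nrp1, the receptor that binds class 3 semaphorins and forms of vascular endothelial growth factor, was lower in both pluripotent groups. Its signals were 13.63 and 13.69 in OG2-MEF, 9.42 and 9.30 in piPSC and 9.44 and 9.78 in ES, so the fibroblast arrays lay clear of the other 4. The share of all features with fibroblast and pluripotent arrays so separate was not computed, here or for the members below. Nrp1 was 19.7-fold lower in piPSC (log2 fold change -4.30, SE 0.15, adjusted p = 4.3e-06) and 16.5-fold lower in ES (log2 fold change -4.05, SE 0.15, adjusted p = 4.6e-06). The gene's other probe gave differences of -4.19 and -4.01. Nrp2, its paralog, lay between 5.01 and 5.64 on all 6 arrays on the probe used, with log2 fold changes of -0.12 (SE 0.21, adjusted p = 0.63) in piPSC and 0.12 (SE 0.21, adjusted p = 0.64) in ES. Its other kept probe was above background only in OG2-MEF, at 5.22 and 5.44, and gave only bounds, at least 1.28-fold lower in piPSC and at least 1.11-fold lower in ES.

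Among the plexins, which are the signalling receptors, 2 of 8 genes on the array were tested. Plxna2, which pairs with neuropilins and also binds class 6 semaphorins, lay at 9.22 and 9.56 in OG2-MEF, 7.54 and 7.22 in piPSC and 7.57 and 8.31 in ES. All 4 pluripotent arrays were below both fibroblast arrays. The log2 fold change was -2.01 in piPSC (SE 0.27, adjusted p = 0.00073) and -1.45 in ES (SE 0.27, adjusted p = 0.0029). Plxnb1, the receptor of Sema4d, was near background, between 4.69 and 5.33, with log2 fold changes of 0.37 (SE 0.18, adjusted p = 0.1) and 0.32 (SE 0.18, adjusted p = 0.15). Plxna1, Plxna3, Plxna4, Plxnb3 and Plxnc1 were above background on 0 arrays and Plxnd1 on 1, and the highest signal among these probes was 5.07. Each of these genes had 1 probe, so a dim signal may also belong to the probe.

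Membrane-bound semaphorins held the members that were higher in the pluripotent cells. Of 10 tested genes, 3 were lower and 2 higher in piPSC, and 2 lower and 3 higher in ES, shares near those of all features (21.4% lower and 20.0% higher in piPSC, 21.6% and 25.1% in ES). Sema5a and Sema6d passed the background filter through OG2-MEF alone, and Sema4g was not above background in OG2-MEF. Each of these could differ in 1 direction only. Sema4a, a class 4 semaphorin known from costimulation of T cells in the mouse, lay at 5.44 and 5.24 in OG2-MEF, 7.86 and 8.11 in piPSC and 7.98 and 8.53 in ES. It was 6.25-fold higher in piPSC (log2 fold change 2.64, SE 0.21, adjusted p = 7.6e-05) and 7.52-fold higher in ES (2.91, SE 0.21, adjusted p = 4.6e-05). Sema4b, of the same class, lay at 8.81 and 9.04 in OG2-MEF, 10.67 and 10.75 in piPSC and 10.83 and 11.38 in ES. Both genes were thus above the fibroblast range on every pluripotent array. The log2 fold change of Sema4b was 1.79 in piPSC (SE 0.20, adjusted p = 0.00035) and 2.18 in ES (SE 0.20, adjusted p = 0.00013).

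Sema4g was called higher in ES and not in piPSC. It went from 4.82 and 4.87 in OG2-MEF, not above background, to 5.80 and 6.06, with 4.97 and 5.08 in piPSC. The increase in ES was at least 1.89-fold (adjusted p = 0.00055), and the call ended on the authors' matrix, with no background correction, with a larger offset and with median scaling. Sema4d, known in immune cells as a ligand of Plxnb1, lay at 5.29 and 5.49 in OG2-MEF, 6.28 and 6.26 in piPSC and 5.83 and 5.71 in ES. Its log2 fold changes of 0.88 (SE 0.13, adjusted p = 0.0012) and 0.38 (SE 0.13, adjusted p = 0.038) passed the p threshold but not the fold of 2.

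Sema7a, a semaphorin anchored by a lipid that binds integrins and Plxnc1, was lower in both pluripotent groups. It lay at 8.62 and 8.60 in OG2-MEF, 5.09 and 5.14 in piPSC and 5.04 and 5.09 in ES. The ES values were not above background and those of piPSC were just above it. The log2 fold change in piPSC was -3.49 (SE 0.12, adjusted p = 3.5e-06), and the gene was at least 10.8-fold lower in ES (adjusted p = 2.8e-06). With the mean of its kept probes the values were -2.18 and -2.24. Sema6d, a class 6 ligand of type A plexins, lay at 8.01 and 7.86 in OG2-MEF and between 4.48 and 4.95 on the other 4 arrays, none of them above background. It was at least 7.79-fold lower in piPSC (adjusted p = 2.6e-05) and at least 6.77-fold lower in ES (adjusted p = 2.2e-05), on 1 of its 4 probes, the other 3 being dim everywhere.

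Sema4f was intermediate in ES, with 8.11 and 7.88 in OG2-MEF, 6.25 and 6.14 in piPSC and 6.93 and 7.38 in ES. It was lower in piPSC (log2 fold change -1.80, SE 0.19, adjusted p = 0.00022) and fell short of 2-fold in ES (-0.84, SE 0.19, adjusted p = 0.006), where the value was -1.06 and a call without ES replicate 2. Sema5a, Sema6b and Sema6c lay between 4.64 and 5.82 on all arrays and were not called in any comparison. For Sema5a the log2 fold change in piPSC was -0.85 (SE 0.24, adjusted p = 0.02), and -1.05 without piPSC replicate 1, which made it a call. Neither probe of Sema6a was above background on any array.

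**Figure D2:**
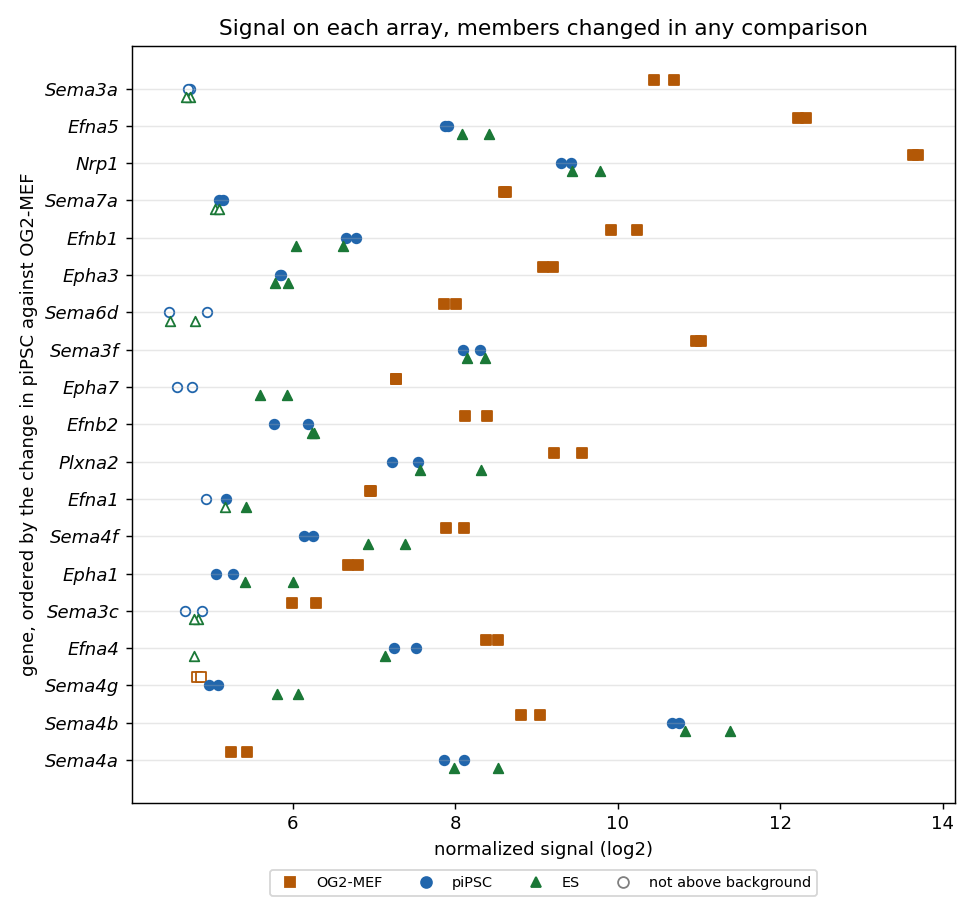
Normalized log2 signal on each array (horizontal axis) for the 19 members called in any comparison, ordered by the change in piPSC against OG2-MEF. Squares are OG2-MEF, circles piPSC and triangles ES, 2 arrays each, and open symbols are not above background. The fibroblast squares lie to the right of all other symbols down to Efna4 and to the left of them for Sema4a, Sema4b and Sema4g.

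Ephrin ligands were lower in the pluripotent cells for 4 of 6 tested genes in piPSC and 5 of 6 in ES, where 21.4% and 21.6% of all features were lower. Efna1 passed the background filter through OG2-MEF alone, so it could differ in 1 direction only. Efna5, an ephrin-A that repels axons, lay at 12.32 and 12.22 in OG2-MEF, 7.87 and 7.91 in piPSC and 8.08 and 8.41 in ES. It was 20.8-fold lower in piPSC (log2 fold change -4.38, SE 0.15, adjusted p = 3.7e-06) and 16.2-fold lower in ES (log2 fold change -4.02, SE 0.15, adjusted p = 4.3e-06). Another kept probe, above background only in OG2-MEF, was at least 2.27-fold and at least 1.97-fold lower. Efna1 lay at 6.95 and 6.96 in OG2-MEF, 5.18 and 4.93 in piPSC and 5.42 and 5.16 in ES. Its fold changes of -1.91 (SE 0.15, adjusted p = 7.5e-05) and -1.67 (SE 0.15, adjusted p = 0.00012) on the log2 scale ended near background, with 1 of 2 arrays above it in each pluripotent group.

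Efna4 changed in ES by an amount that turned on a single ES array. Its signals were 8.38 and 8.53 in OG2-MEF and 7.24 and 7.51 in piPSC, but 7.14 on ES replicate 1 and 4.79, not above background, on ES replicate 2. The log2 fold change in ES was -2.49 (SE 0.67, adjusted p = 0.015), -1.30 without ES replicate 2 and -3.68 without ES replicate 1. The call was lost with no detection filter and with a test against 2-fold. It was also lost without OG2-MEF replicate 1 (-2.52) or OG2-MEF replicate 2 (-1.36). In the fit without OG2-MEF replicate 2, the gene's other kept probe had the higher mean and stood for it. The difference of that probe over all arrays was -1.39, so -1.36 is no shift of the probe used. In piPSC the value of -1.07 (SE 0.67, adjusted p = 0.2) shared the wide spread of the ES arrays, and it passed with only the 4 arrays compared (SE 0.13, adjusted p = 2.6e-05), without ES replicate 1 (-1.07, adjusted p = 3e-05) or without ES replicate 2 (-1.06, adjusted p = 3.9e-05). The other kept probe of Efna4 also had a low ES replicate 2, 7.34 against 5.80. Efna2 and Efna3 were above background on 0 arrays.

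Of the ephrin-B ligands, Efnb1, an X-linked gene of tissue boundaries in the skull, lay at 9.92 and 10.23 in OG2-MEF, 6.78 and 6.66 in piPSC and 6.04 and 6.62 in ES. Efnb2, a marker of arteries and a ligand of Ephb4, lay at 8.39 and 8.12 in OG2-MEF, 6.19 and 5.77 in piPSC and 6.26 and 6.24 in ES. Neither gene overlapped between fibroblast and pluripotent arrays, though how common this was among all features was not computed. Efnb1 fell by 3.36 in piPSC (SE 0.22, adjusted p = 3.2e-05) and by 3.75 in ES (SE 0.22, adjusted p = 1.9e-05) on the log2 scale, and Efnb2 by 2.28 (SE 0.18, adjusted p = 7.3e-05) and 2.00 (SE 0.18, adjusted p = 0.00011). Efnb3 lay between 5.30 and 5.98 on all 6 arrays, with log2 fold changes of -0.10 (SE 0.16, adjusted p = 0.62) and 0.34 (SE 0.16, adjusted p = 0.097).

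EphA receptors, which read ephrin-A ligands, were lower in the pluripotent cells for 3 of 6 tested genes and higher for 0. The share of all features called lower was 21.4% in piPSC and 21.6% in ES. Epha3, a receptor of Efna5, lay at 9.20 and 9.08 in OG2-MEF, 5.86 and 5.84 in piPSC and 5.78 and 5.94 in ES. It was 9.79-fold lower in piPSC (log2 fold change -3.29, SE 0.13, adjusted p = 5.3e-06) and 9.72-fold lower in ES (-3.28, SE 0.13, adjusted p = 4.8e-06). A second probe, above background on all 6 arrays, gave differences of -2.10 and -2.03. The remaining one was above background only in OG2-MEF, so it could differ in 1 direction only, and was at least 3.71-fold and at least 3.23-fold lower. Epha7, another ephrin-A receptor, lay at 7.27 on both OG2-MEF arrays, at 4.76 and 4.57 in piPSC, not above background, and at 5.60 and 5.93 in ES. It was at least 4.91-fold lower in piPSC (adjusted p = 2.3e-05), and its log2 change in ES was -1.51 (SE 0.16, adjusted p = 0.00021).

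Epha1 lay at 6.68 and 6.80 in OG2-MEF, 5.06 and 5.26 in piPSC and 6.0 and 5.41 in ES. Its log2 fold change was -1.58 in piPSC (SE 0.21, adjusted p = 0.00077) and -1.03 in ES (SE 0.21, adjusted p = 0.0047), the latter just past 2-fold. The call in ES was lost without ES replicate 2 (-0.74) or OG2-MEF replicate 2 (-0.95), on the authors' matrix and with no background correction (both -0.74), with an offset of 50 (-0.70), with the mean of kept probes (-0.95) and with a test against 2-fold (adjusted p = 0.95). Epha2, a receptor found on epithelial cells and in the early mouse embryo, stayed bright: 9.83 and 9.68 in OG2-MEF, 9.58 and 9.85 in piPSC, 9.63 on ES replicate 1 and 7.70 on ES replicate 2. On 5 of the 6 arrays it was within 0.27, and no comparison called it (-0.04, SE 0.56, adjusted p = 0.96 in piPSC and -1.09, SE 0.56, adjusted p = 0.12 in ES). Without ES replicate 1 the value in ES was -2.04 (adjusted p = 1.2e-06), which rests on ES replicate 2 alone. Epha4 and Epha8 lay between 4.85 and 5.50 on all 6 arrays and were not called, and Epha5, Epha6 and Epha10 were above background on none.

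EphB receptors, which read ephrin-B ligands, were called in no comparison, 0 of 2 tested. Ephb4, the venous partner of Efnb2, lay at 6.20 and 6.22 in OG2-MEF, 5.97 and 5.56 in piPSC and 6.42 and 6.29 in ES, above background on all 6 arrays. Its log2 fold change was -0.44 in piPSC (SE 0.17, adjusted p = 0.054) and 0.14 in ES (SE 0.17, adjusted p = 0.47). Ephb3 was above background only in ES, at 5.32 and 5.72, and was at least 1.42-fold higher there than in OG2-MEF (adjusted p = 0.0079), which was no call because the fitted fold of 1.70 was under 2. Ephb1 was above background on 0 arrays and Ephb6 on 1.

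**Figure D3:**
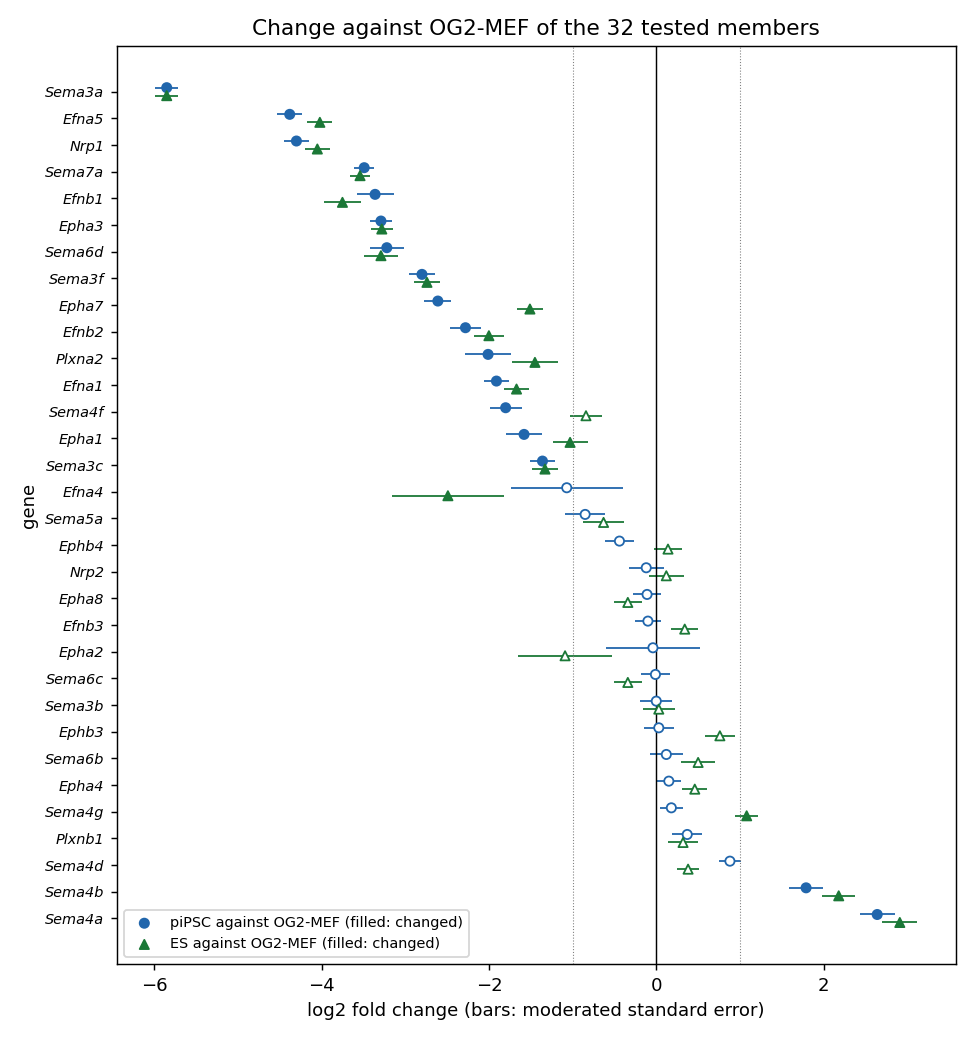
Log2 fold change against OG2-MEF with moderated standard errors for the 32 tested members, circles for piPSC and triangles for ES (n = 2 arrays per group), filled where the change was called. Dotted lines mark a fold of 2, and genes not above background in a group are drawn at their fitted value. Values run from -5.85 for Sema3a to 2.64 and 2.91 for Sema4a, and the widest bars are those of Efna4 and Epha2.

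Direct comparison of piPSC with ES asked where these genes differed between induced and established pluripotent cells. Of the 32 tested members, 1 was called, Epha7, against 8.65% of all features, 4.32% higher and 4.34% lower. Epha7 was at least 1.73-fold lower in piPSC, where its signal was not above background (fitted log2 difference -1.10, SE 0.16, adjusted p = 0.0077). The call was lost without piPSC replicate 1 (-1.19, adjusted p = 0.064), piPSC replicate 2 (-1.0, adjusted p = 0.074) or ES replicate 2 (-0.99, adjusted p = 0.0011), on the authors' matrix and with no background correction (both -0.73), with an offset of 50 (-0.58), with median scaling (-0.95) and with a test against 2-fold. At the p threshold without the fold, 6 of the 32 tested members passed, where 2933 of all 10748 features did. These members were Epha7, Ephb3, Ephb4, Sema4f and Sema4g, lower in piPSC, and Sema4d, higher. Their log2 differences were -0.95 for Sema4f (SE 0.19, adjusted p = 0.017), -0.91 for Sema4g (SE 0.14, adjusted p = 0.0094), -0.58 for Ephb4 (SE 0.17, adjusted p = 0.046) and 0.50 for Sema4d (SE 0.13, adjusted p = 0.039). Ephb3, not above background in piPSC, was at least 1.46-fold lower there (adjusted p = 0.031).

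Among genes well below the fibroblast level, Epha7 was thus called between piPSC and ES, though the call was lost under several settings. By contrast, 4 genes above background on all 6 arrays lay closer together, chosen here after their values were seen. Epha3 differed by -0.01 between them (95% confidence interval -0.32 to 0.30), Sema3f by -0.06 (-0.41 to 0.29), Nrp1 by -0.26 (-0.63 to 0.12) and Efna5 by -0.36 (-0.72 to 0.01). The intervals of these 4 genes exclude a 2-fold difference. For Epha2 (1.05, interval -0.31 to 2.40) and Efna4 (1.41, interval -0.22 to 3.04) they do not. Nor do the intervals of Plxna2 (-1.22 to 0.09), Epha1 (-1.06 to -0.02) and Sema4f (-1.40 to -0.51). The same holds for Sema4g (-1.25 to -0.57), Epha7 (-1.48 to -0.72) and Ephb3 (-1.17 to -0.30). Without ES replicate 1, ES replicate 2 alone is the ES group. The differences were then 2.61 for Efna4, 2.00 for Epha2, -1.18 for Sema4f, -1.06 for Sema4g and -1.30 for Epha7.

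Of the members, 11 had more than 1 kept probe. For Nrp1, Sema3f, Epha3 and Efna4, another probe was above background in every group and could have gone either way. It was lower in both comparisons, as given above for the first 3 and by -0.90 and -1.39 for Efna4. Sema6b, which was not called, also had another probe above background in every group. That probe went slightly up, by 0.06 in piPSC and 0.33 in ES. The other kept probes of Sema7a, Epha1 and Efna5, and 1 each of Sema3f and Epha3, were above background only in OG2-MEF, so their direction was fixed by the filter and adds no support. For Sema7a that probe lay at 5.32 and 5.25 in OG2-MEF and was at least 1.24-fold lower in piPSC.

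**Figure D4:**
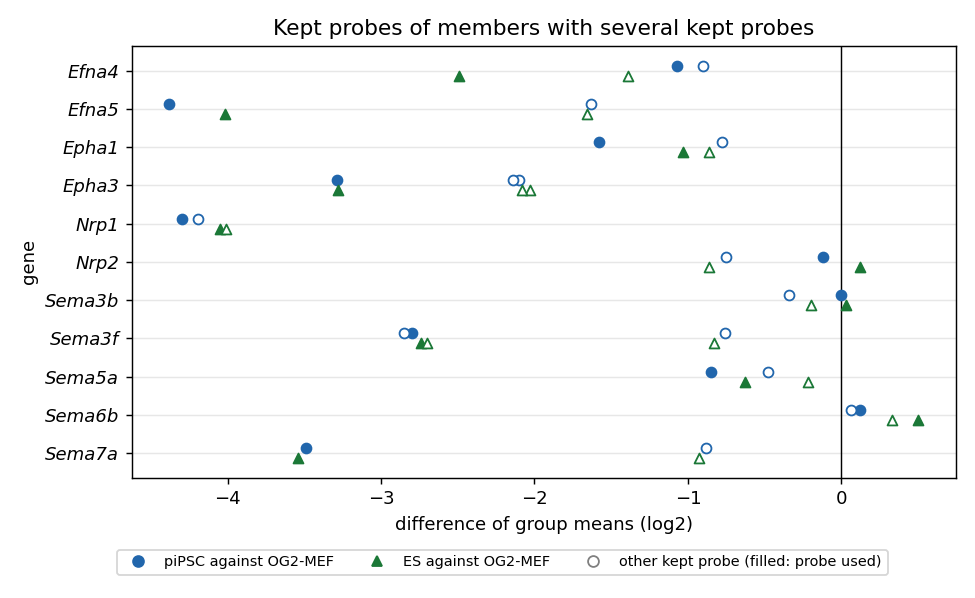
Difference of group means (log2) for every kept probe of the 11 members with several, circles for piPSC against OG2-MEF and triangles for ES against OG2-MEF, filled for the probe used. Differences of probes above background only in OG2-MEF end at background and are no measure of size. The probes of Nrp1 lie at -4.30 and -4.19 in piPSC, while those of Efna5 lie at -4.38 and -1.63 and those of Nrp2 at -0.12 and -0.75.

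Other genes of these pathways were taken from lists chosen for their known roles. Of 28 tested genes of semaphorin and plexin signalling, 11 were lower and 3 higher in piPSC, and 11 lower and 4 higher in ES. That is 50% and 53.6% called, beside 41.4% and 46.7% of all features. Mical2, an oxidase that takes actin filaments apart, changed by -3.51 in piPSC (SE 0.14, adjusted p = 5.8e-06) and -3.42 in ES (SE 0.14, adjusted p = 5.5e-06). Dpysl3, of the family of collapsin response mediators, changed by -3.22 (SE 0.13) and -2.78 (SE 0.13). Plxdc1, which shares a plexin-like domain but is no plexin, was higher: 4.58 and 4.87 in OG2-MEF, not above background, 6.71 and 6.72 in piPSC and 8.32 and 8.49 in ES. The increase was at least 3.25-fold in piPSC (adjusted p = 5.6e-05) and at least 10.5-fold in ES (adjusted p = 5.3e-06). Set against ES, piPSC had less Plxdc1, with a log2 difference of -1.69 (SE 0.15, adjusted p = 0.002).

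Of 31 tested genes of Eph and ephrin signalling, 11 were lower and 3 higher in piPSC, and 12 lower and 3 higher in ES. The lower genes included some above background only in OG2-MEF, which could differ in 1 direction only. The shares called, 45.2% and 48.4%, were near the 41.4% and 46.7% of all features. The metalloprotease gene Adam12 changed by -4.06 in piPSC (SE 0.25, adjusted p = 2.4e-05) and -4.50 in ES (SE 0.25, adjusted p = 1.5e-05), and Mmp14, of another metalloprotease family, by -3.09 (SE 0.14) and -3.43 (SE 0.14). Slc9a3r1, a scaffold protein with PDZ domains, was higher by 3.14 (SE 0.13, adjusted p = 6.3e-06) and 3.53 (SE 0.13, adjusted p = 4e-06). The median log2 fold change in piPSC was -0.80 for the semaphorin list and -0.58 for the Eph list, beside 0.02 for all features.

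Genes of vascular endothelial growth factors and their receptors, a system that also uses Nrp1, were lower for 4 of 7 and higher for 0 in piPSC. In ES they were lower for 3 and higher for 1. That is 57.1% called in each, beside 41.4% and 46.7% of all features. Pgf, lower in both, was above background only in OG2-MEF and so could differ in 1 direction only. The receptor gene Flt1 was among the lower genes, at -2.26 in both (SE 0.21). Vegfa lay at 12.03 and 12.06 in OG2-MEF, 8.96 and 8.73 in piPSC and 8.50 and 8.70 in ES, and it was 9.19-fold lower in piPSC (SE 0.14 on the log2 scale, adjusted p = 8.1e-06). Among other axon guidance genes, 9 of 16 were lower and 1 higher in piPSC, and 7 lower and 1 higher in ES. That is 62.5% and 50% called, beside 41.4% and 46.7% of all features, so the share in ES was near that of all features. As with Pgf, the lower genes included a gene above background only in OG2-MEF. The gene called higher was not above background in OG2-MEF, so both could differ in 1 direction only. The netrin receptor gene Unc5c changed by -4.71 in piPSC (SE 0.15, adjusted p = 3e-06) and -4.85 in ES (SE 0.15, adjusted p = 2.4e-06), and the ligand gene Slit2 by -2.85 (SE 0.13) and -2.51 (SE 0.13).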

How the data were processed

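The authors deposited a table of probe intensity on a linear scale from Illumina bead arrays, not normalized between arrays per the file headers, with a detection p-value per probe and array in the deposited file. Each array took labelled RNA from 500 ng, per the labels' protocols. The authors' deposited series matrix holds log2 values, which a quantile normalization of the log2 intensities without background correction gave within 0.0012; each column had a median of 5.89. Scanner software was not given in the sources used here.

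Here the intensities went through neqc (limma 3.58.1, R 4.3.3), which takes its background from the detection p-values, adds an offset of 16 and quantile-normalizes. Symbols came from the array's annotation and were updated through RefSeq (GRCm38.p6): 23978 probes had 1 symbol, 0 several and 1719 none, and no member's symbol changed. The kept probe with the highest mean stood for a gene, which gave 9900 named genes and 848 unnamed probes. The 3 groups were compared in 1 limma fit, whose residual degrees of freedom were 3 and prior degrees of freedom 3.33. All 6 arrays share 1 spread per gene, so comparisons with ES may have p-values that are too small where the ES arrays differ. Precision is limited by the number of arrays. The fit was tested on simulated data in which the 3 groups shared 1 spread per gene. That could not test the wider spread of the ES arrays.

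Every member could be named. From the other lists, up to 4 called genes with the largest change in a comparison were eligible. Members and lists were chosen with earlier results of these data known. Same-numbered arrays did not deviate together (correlations of 0.06, 0.01 and 0.25 between groups), so the numbers were not treated as pairs. Alternatives covered the matrix, background, offset, scaling, filter, probe choice, fold, prior, weights, block and each array left out.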

Additional observations from a re-analysis of the deposited data

How the results depend on the processing

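Over 20 alternatives each, the 36 called changes of members kept their direction, with 686 values also keeping the call and 34 losing it. The 17 members called in piPSC against OG2-MEF numbered 15 to 19 and the 18 in ES against OG2-MEF 13 to 22. With arrays left out in turn these counts ran from 17 to 18 and from 16 to 19. In piPSC against ES the count of 1 became 0 on the authors' matrix, with no background correction, with an offset of 50, with median scaling and with treat against 2-fold, and 6 with no fold threshold, and it ran from 0 to 5 with arrays left out in turn. With the replicate number as a block, the counts of 17, 18 and 1 did not change, and neither did the calls. Median scaling moved the median of all features in piPSC against OG2-MEF from 0.02 to -0.18 and in ES against OG2-MEF from 0.15 to -0.06, and the split of all features in piPSC against OG2-MEF from 2150 higher and 2304 lower to 1678 and 2875, while members stayed at 2 and 15. Counts over all features in the order of the comparisons were 7321, 7868 and 2933 with no fold threshold and 2651, 3173 and 72 with treat. In piPSC against ES the 930 features became 614 on the matrix (401 higher and 213 lower), 519 with an offset of 50, 151 and 298 without piPSC replicate 1 or 2 and 1820 without ES replicate 1. Genes whose signal ends near background in a group, such as Sema3c, Sema4g and Epha7, have folds limited by that background. A fit that leaves out an array takes the lone array's spread from the other groups. The cause of these shifts was not tested.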
